A study of Mus musculus with 4 samples.

Results

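The inhibitors of the transcription factor NF-kB were followed through a TNF time course in mouse fibroblasts: Nfkbia, Nfkbib, Nfkbie, Nfkbiz and Bcl3, the genes of IkB-alpha, IkB-beta, IkB-epsilon, IkB-zeta and Bcl-3. They were taken as all probe sets whose annotation names only that gene, which gave 13 of the 45101 probe sets on the array and 5 of 18193 named genes. Nfkbia had 5 probe sets, Nfkbiz 3, Nfkbie and Nfkbib 2 each, and Bcl3 1. The cells were an immortal embryonic 3T3 line, kept overnight in 0.5% serum and then harvested (basal) or exposed to tumour necrosis factor (TNF) for 0.5, 2 or 12 h, with 1 Affymetrix 430 2.0 array per group. The labels state 10 ng/ml TNF for the 0.5 h and 12 h samples; the 2 h sample is named as TNF-treated, but its protocol text is that of the basal sample and gives no concentration. All 4 groups had the low-serum period in common, and no array of cells kept for 0.5, 2 or 12 h without TNF was analysed here, so TNF and elapsed time cannot be told apart.

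IkB proteins hold NF-kB dimers inactive in the cytoplasm through their ankyrin repeats. TNF activates the IkB kinase complex, which marks IkB-alpha, IkB-beta and IkB-epsilon for ubiquitination and destruction, and the freed dimers enter the nucleus; IkB-alpha and IkB-epsilon are themselves known NF-kB targets and so act as negative feedback, whereas IkB-beta is known as the less inducible form. IkB-zeta and Bcl-3 are the atypical members: they work in the nucleus with the p50 and p52 subunits and can raise as well as lower transcription of particular targets. The arrays measured RNA, not these proteins.

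The starts of these genes are shown first because NF-kB binds kB sites in promoters. RefSeq windows (GRCm38.p6) of 250 bases before to 50 after a start were matched for 4 of the 5 genes, and none was used for Nfkbiz. Each line gives bases before the start, 5′ to 3′ on the gene's strand, with matches to either of 2 kB motifs in capitals. The stretches are chr12:55492648-55492897 (minus strand) for Nfkbia, chr17:45555450-45555699 (plus) for Nfkbie, chr7:19822825-19823005 (minus) for Bcl3, cut where an annotated transcript begins, and chr7:28766645-28766894 (minus) for Nfkbib.
Nfkbia: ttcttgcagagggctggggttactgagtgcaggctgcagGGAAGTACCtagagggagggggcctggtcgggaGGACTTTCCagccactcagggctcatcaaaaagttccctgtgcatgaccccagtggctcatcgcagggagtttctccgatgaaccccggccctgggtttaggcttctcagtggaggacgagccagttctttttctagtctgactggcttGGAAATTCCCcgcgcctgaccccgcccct
Nfkbie: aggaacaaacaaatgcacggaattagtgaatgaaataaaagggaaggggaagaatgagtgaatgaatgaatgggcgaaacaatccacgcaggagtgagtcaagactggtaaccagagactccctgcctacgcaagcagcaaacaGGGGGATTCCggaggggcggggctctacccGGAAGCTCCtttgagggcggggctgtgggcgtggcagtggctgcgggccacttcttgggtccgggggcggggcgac
Bcl3: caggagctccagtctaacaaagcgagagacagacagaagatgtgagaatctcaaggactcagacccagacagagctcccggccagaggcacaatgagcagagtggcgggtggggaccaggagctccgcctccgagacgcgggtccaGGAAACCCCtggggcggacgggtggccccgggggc
Nfkbib: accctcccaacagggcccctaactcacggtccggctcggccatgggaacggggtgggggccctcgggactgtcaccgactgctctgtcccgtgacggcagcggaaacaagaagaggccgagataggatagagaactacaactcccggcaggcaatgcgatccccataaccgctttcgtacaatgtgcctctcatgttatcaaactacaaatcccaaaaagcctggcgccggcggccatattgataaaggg

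The first motif was the 10-base kB consensus, and the second a looser kB core, GGNNNTTCC, chosen after these sequences had been seen; both were searched on both strands, and a core match can lie inside a consensus match. The Nfkbia window held 1 consensus match, GGAAATTCCC, at 29 to 20 bases before the start, and 3 core matches. Nfkbie held 1 consensus match, GGGGGATTCC, from 106 to 97 bases before the start, and 2 core matches. Bcl3 held 1 consensus match, GGGAAGTCCC, from 3 to 12 bases after the start of the window's transcript, and 2 core matches. Nfkbib held 0 of either. Of 32817 windows of 300 bases, 8.46% held at least 1 consensus match, 18.5% at least 1 core match, 2.15% at least 2 and 0.180% at least 3. The windows of Nfkbia, Nfkbie, Bcl3 and Nfkbib were 61%, 58%, 69% and 56.3% G or C, against a median of 52.7% over all windows. Shares among windows of like composition were not computed. A match is a string of letters and not a measured binding site.

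Values are the deposited linear signals. Any signal below a floor of 9.08, the 30th percentile over all values, was set to it; a gene was represented by its brightest probe set (mean log2 signal), and "rose" or "fell" means at least 2-fold; with 1 array per group there is no replicate error and no test was run. As a gauge of scatter, each ratio is set beside the scaled median absolute deviation (scatter, in log2 units) of the same ratio in the 500 genes nearest in mean signal, which includes real changes and is no replicate error. Array medians went from 22.1 in basal cells to 21.3, 20.7 and 19.9 at 0.5, 2 and 12 h, and the median log2 ratio to basal of all probe sets was -0.05, -0.12 and -0.20. All 11 fibroblast markers with a named probe set were above the floor on every array and 0 changed, their summed signal lying between 41403 and 42407. The dimmest of them, Thy1, lay close to the floor, between 10.9 and 14.6. The summed signal of 11 macrophage and leukocyte markers lay between 276 and 329. Ptprc, Itgam and Cd3e were under the floor throughout, but 6 to 8 of the 11 were above it on each array. The brightest were Cd14, between 93.5 and 111, and Csf1r, between 54.6 and 69.3. The sum of 6 endothelial markers lay between 62.7 and 76.6. That of 6 epithelial markers lay between 182 and 272, with Krt19 the brightest (97.6 to 170). That of 5 adipocyte markers lay between 1492 and 1937, nearly all of it from Fabp4.

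Of the 5 genes, 3 rose at 0.5 h, 4 did so at 2 h and 2 at 12 h, and 0 fell relative to basal at any time. Nfkbia and Nfkbiz were highest at 0.5 h, Nfkbie and Bcl3 at 2 h, and Nfkbib stayed within 2-fold of basal. Among all 16269 genes above the floor on some array, 2.55% rose at 0.5 h, 2.58% at 2 h and 2.79% at 12 h, and 2.96%, 3.60% and 5.18% fell. For the 5 genes the median log2 ratio was 1.24, 1.60 and 0.91 at the 3 times, against -0.03, -0.09 and -0.14 over all genes. Low signals scatter past 2-fold more often, so the count was repeated with signals raised to the 75th percentile of all values (102). That level was reached by 4 of the 5 on some array. There Nfkbia and Nfkbiz rose at 0.5 h, Nfkbia, Nfkbie and Nfkbiz at 2 h, and Nfkbia and Nfkbie at 12 h. Of 7311 genes that reached it on some array, 0.328%, 0.479% and 0.616% rose. Nfkbie passed 102 only at 2 h (885) and 12 h (576). It thus entered this count through its rise, and its calls here add no support.

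**Figure D1:**
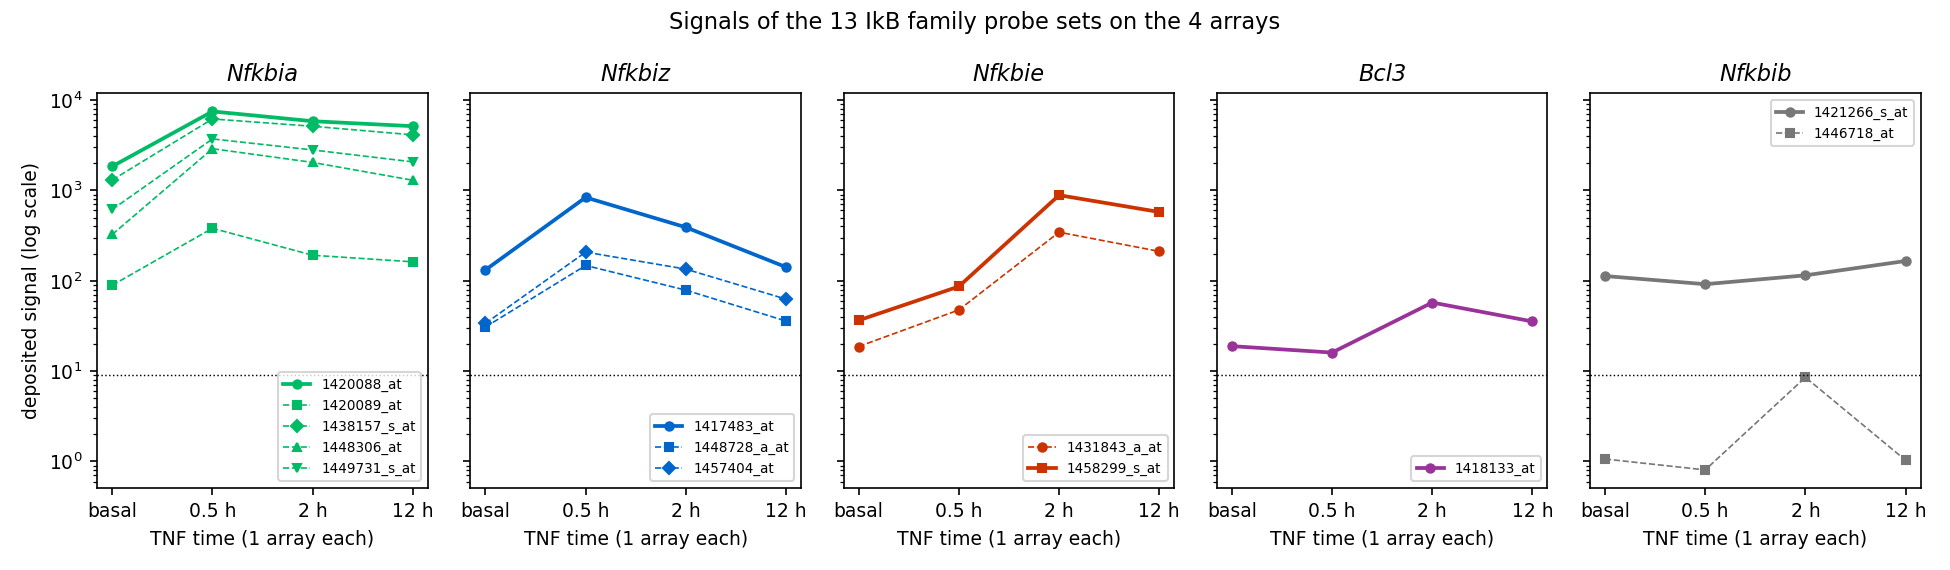
Deposited signal (log axis) of each probe set of the 5 genes on the basal, 0.5, 2 and 12 h arrays, 1 array per point; the thick line is the probe set that stands for the gene and the dotted line the floor of 9.08. All Nfkbia and Nfkbiz probe sets are highest at 0.5 h and both Nfkbie probe sets at 2 h, and the second Nfkbib probe set lies under the floor throughout; heights are not comparable between probe sets.

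Nfkbia, whose protein IkB-alpha carries NF-kB back out of the nucleus, gave signals of 1843 in basal cells, then 7476, 5826 and 5134 after 0.5, 2 and 12 h of TNF (1420088_at). The first TNF array was the highest and both later arrays stayed well above basal. The rise was 4.06-fold at 0.5 h, 3.16-fold at 2 h and 2.79-fold at 12 h, with log2 ratios of 2.02, 1.66 and 1.48 beside a scatter of 0.07, 0.10 and 0.17. Of the 500 genes nearest in signal, 1 rose at 0.5 h, 2 at 2 h and 1 at 12 h. From its peak Nfkbia went down by 0.36 (log2) to 2 h and by a further 0.18 to 12 h, both short of 2-fold. Over its 5 probe sets the first step down ran from 0.27 to 0.99 and the second from 0.18 to 0.66.

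The other probe sets of Nfkbia traced the same order at other amplitudes. The signals of 1448306_at were 325, 2893, 2039 and 1294 on the basal, 0.5, 2 and 12 h arrays, the largest rise at 8.90-fold. Those of 1449731_s_at were 615, 3711, 2801 and 2067, and those of 1438157_s_at 1303, 6170, 5122 and 4115. The weakest, 1420089_at, read 89.2, 381, 192 and 162. Every one of the 5 was highest at 0.5 h, lower at 2 h and lower again at 12 h. Their ratios ran from 4.06-fold to 8.90-fold at 0.5 h and from 2.15-fold to 6.27-fold at 2 h; at 12 h 4 of 5 were past 2-fold, in a range from 1.82-fold to 3.98-fold. These probe sets read the same RNA sample and are not replicates; by the array maker's naming, an ending of s_at marks probes that can also match other transcripts.

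Nfkbiz, the gene of the nuclear co-regulator IkB-zeta, gave signals of 132 in basal cells, then 836, 390 and 141 after 0.5, 2 and 12 h of TNF (1417483_at). It was thus high on 1 array, intermediate on the next and close to basal on the last. The rise was 6.35-fold at 0.5 h, the 9th highest ratio of 16269 genes, and 2.96-fold at 2 h. Its log2 ratios were 2.67, 1.57 and 0.10, beside a scatter of 0.15, 0.19 and 0.28. The probe set 1457404_at read 33.8, 207, 134 and 62.6, and 1448728_a_at 30.8, 148, 78.7 and 35.8. Both were highest at 0.5 h as well, and the 3 probe sets rose 4.80-fold to 6.35-fold at 0.5 h and 2.56-fold to 3.98-fold at 2 h, while at 12 h they lay 1.07-fold to 1.85-fold above basal.

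Nfkbie, the gene of IkB-epsilon, an inhibitor with a delayed feedback role, gave signals of 36.5 in basal cells, then 86.4, 885 and 576 after 0.5, 2 and 12 h of TNF (1458299_s_at). The large step fell between 0.5 and 2 h. The gene rose 2.37-fold at 0.5 h, 24.3-fold at 2 h and 15.8-fold at 12 h, with log2 ratios of 1.24, 4.60 and 3.98 beside a scatter of 0.19, 0.20 and 0.30. Its ratio ranked 3rd of 16269 genes at 2 h and 5th at 12 h. The second probe set, 1431843_a_at, read 18.7, 47.5, 345 and 211, and rose 2.54-fold, 18.4-fold and 11.3-fold. Signals on the first 2 arrays were low on both probe sets, so the 0.5 h call ends once signals are raised to 102 (log2 ratio 0). With that floor the 2 h and 12 h ratios are bounds of at least 8.68-fold and 5.65-fold. The 500 neighbours were matched on the mean over all 4 arrays, which the 2 h and 12 h signals raise. The 0.5 h scatter of 0.19 thus comes from brighter genes than Nfkbie was on the first 2 arrays. Genes near the dimmer Bcl3 gave 0.52 at 0.5 h.

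Bcl3, which encodes a nuclear partner of p50 and p52 known as a proto-oncogene, gave signals of 18.9 in basal cells, then 16.0, 57.4 and 35.5 after 0.5, 2 and 12 h of TNF (1418133_at, its single probe set). The basal and 0.5 h arrays were low and the 2 later ones higher. The log2 ratio was -0.24 at 0.5 h, 1.60 at 2 h (a rise of 3.04-fold) and 0.91 at 12 h, beside a scatter of 0.52, 0.55 and 0.59. These are low signals: 3.20% of the 500 genes nearest in signal rose at 2 h and 6.20% fell. At 12 h the ratio was short of 2-fold as deposited and past it with median centring (1.06), quantile normalization or loess (both 1.08).

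Nfkbib, the gene of IkB-beta, gave signals of 113 in basal cells, then 91.6, 115 and 166 after 0.5, 2 and 12 h of TNF (1421266_s_at). No array stood 2-fold from basal. The log2 ratios were -0.30, 0.03 and 0.55, beside a scatter of 0.22, 0.27 and 0.36; the 12 h value was 1.47-fold above basal and the highest of the 4. The second probe set, 1446718_at, lay under the floor on all 4 arrays and gave no ratio.

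**Figure D2:**
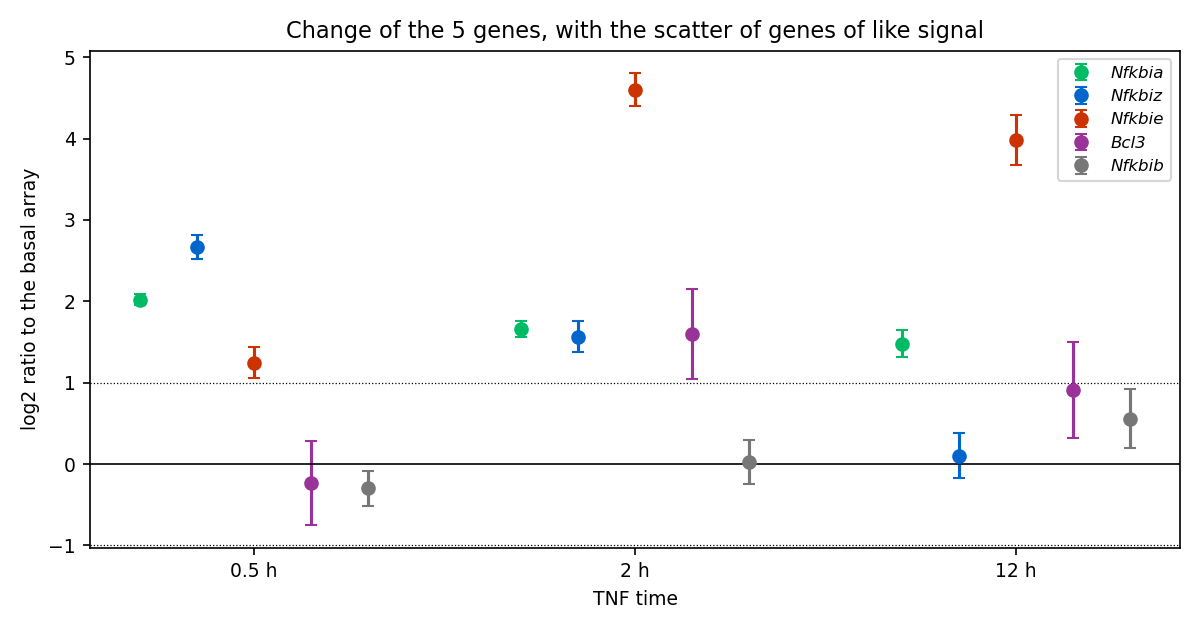
Log2 ratio to the basal array of each gene's chosen probe set at 0.5, 2 and 12 h. Bars show the scaled median absolute deviation of the same ratio in the 500 genes nearest in mean signal over the 4 arrays. They are not replicate error, and the 0.5 h bar of Nfkbie comes from brighter genes than it was then. Dotted lines mark 2-fold. Among the chosen probe sets Nfkbiz leads at 0.5 h (2.67) and Nfkbie at 2 h (4.60) and 12 h (3.98), while Nfkbib lies between -0.30 and 0.55. The order at 0.5 h depends on that choice: the Nfkbia probe set 1448306_at, not drawn, gave 3.15.

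The steps between TNF arrays separated the genes further. From 0.5 to 2 h, 2 of the 5 genes rose, Nfkbie 10.2-fold and Bcl3 3.58-fold, and 1 fell, Nfkbiz by 2.14-fold; over all genes 2.60% rose and 2.96% fell. The Nfkbie step was the 3rd highest of 16269 genes. Nfkbiz fell past 2-fold on 1 of its 3 probe sets at this step, the range being 1.54-fold to 2.14-fold lower. From 2 to 12 h Nfkbiz was the single member of the 5 to fall, by 2.76-fold and past 2-fold on all 3 probe sets, against 3.12% of all genes. Nfkbia, Nfkbie and Bcl3 were lower at 12 h than at 2 h by 1.13-fold, 1.54-fold and 1.62-fold, and Nfkbib was higher by 1.44-fold. The Nfkbia value is the smallest of its 5 probe sets, which were lower by 1.13-fold to 1.58-fold. These steps share arrays with the comparisons to basal and add no independent support to them.

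Persistence was described as the share of the peak rise in signal above basal that was left on later arrays, computed within each probe set. For Nfkbia it was 70.7% at 2 h and 58.4% at 12 h, with a range over the 5 probe sets of 35.1% to 78.5% at 2 h and 25.0% to 58.4% at 12 h. For Nfkbiz it was 36.7% at 2 h and 1.39% at 12 h, with ranges over its 3 probe sets of 36.7% to 58.0% and 1.39% to 16.6%. The 12 h ranges of this share did not overlap between the 2 genes, but the 2 h ranges did. The 12 h ratios to basal also overlapped, the lowest for Nfkbia being 1.82-fold and the highest for Nfkbiz 1.85-fold. Probe sets of a gene read the same RNA sample, so these ranges are no replicate spread. At 0.5 h Nfkbie had made 5.89% of its peak rise (8.85% on the second probe set), and at 12 h it kept 63.6% (59.1%). Bcl3 had made none of its rise at 0.5 h and kept 43.0% at 12 h. RNA stability was not measured, and these shares are not decay rates.

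**Figure D3:**
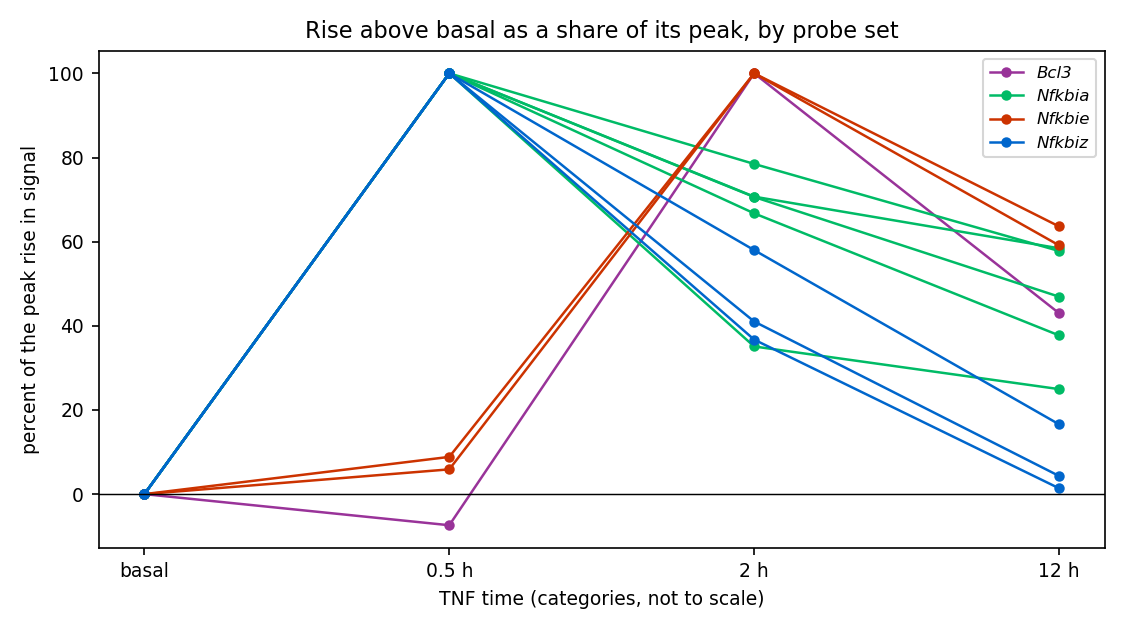
Rise in signal above basal as a percent of its highest value among the TNF arrays, for the 11 probe sets of Nfkbia, Nfkbiz, Nfkbie and Bcl3 (lines, 1 array per point; the time axis is not to scale). Nfkbiz comes down to between 1.39% and 16.6% at 12 h, whereas Nfkbie keeps 59.1% and 63.6%.

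The shares left were then set beside those of the other induced genes. With signals raised to 102, 24 genes rose at 0.5 h, of which 15 were highest on that array, 6 at 2 h and 3 at 12 h. Relative to the 0.5 h rise, their median share left was 53.9% at 2 h and 17.2% at 12 h. At 12 h 14 of the other 23 genes kept less than Nfkbia (58.4%) and 9 kept more, and these counts were the same for each of its 5 probe sets. Of the other 23, 6 kept less than Nfkbiz (1.39%) and 17 more; its 2 dimmer probe sets had 7 and 10 genes below them. Of the 35 genes that rose at 2 h, 23 were highest there; their median share of the 2 h rise left at 12 h was 58.4%. Nfkbie kept 63.6% of it (59.1% on its second probe set) and Nfkbia 82.6%, with a range over the 5 probe sets of 56.5% to 82.6%. Nfkbiz kept 3.79%, and 10.5% on 1448728_a_at, both below the other 34 genes, but 28.6% on 1457404_at, where 6 of the 34 kept less. No test bears on these positions.

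The genes most like each member over the 3 log2 ratios to basal were sought among 7311 genes that reached a signal of 102 on some array, by the root mean square difference. Nearest to Nfkbia was Cxcl5, a neutrophil chemokine gene (difference 0.19; ratios 1.90, 1.95 and 1.42), and the cytokine gene Lif (0.47) was also near. Nearest to Nfkbiz were Lif (0.49, ratios 2.63, 1.76 and 0.93), the transcription factor gene Irf1 (0.54) and the early response gene Ier3 (0.57). Each stood further above basal at 12 h than the brightest Nfkbiz probe set (0.10). The Nfkbiz probe set 1457404_at gave 0.89 there, above Ier3 (0.72) and just under Irf1 (0.92) and Lif. The second Lif probe set was dim, between 3.78 and 12.95, and did not rise. For Nfkbie the nearest genes were more distant: Gbp2, of a guanylate-binding protein (0.85), Casp4, of an inflammatory caspase (0.86), and Ifi47, of an interferon-inducible GTPase (0.93). Gbp2 and Casp4 were highest at 12 h, not at 2 h, and all 3 had basal signals of at most 9.92, so their ratios rest on the floor or lie near it. Nearest to Bcl3 were Bid, of a BCL2-family death protein (0.29), Rffl, of a ubiquitin ligase (0.31), and Pik3r5, of a kinase subunit (0.32). Among the 5 themselves, Nfkbia and Nfkbiz were closest (0.88), with Nfkbib and Bcl3 nearly as close (0.93), and Nfkbib and Nfkbie furthest apart (3.42). All differences were taken on each gene's brightest probe set. For Nfkbia that probe set had the smallest 0.5 h ratio (2.02), in a range up to 3.15. Differences for its other probe sets were not computed. These likenesses rest on 3 ratios that share 1 basal array.

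Other genes of the pathway, in 5 lists with 43 genes analysed, gave 4 that rose at 0.5 h (9.30%, against 2.55% of all genes) and 6 at each later time (14.0%, against 2.58% at 2 h and 2.79% at 12 h). A single gene fell, at 12 h (2.33%, against 5.18% of all genes). Their median log2 ratio was -0.03, -0.05 and -0.20. Of 11 receptor and adaptor genes, Traf1 left the floor at 0.5 h (at least 2.12-fold, to 19.3), a call that ended with loess, with the mean of its probe sets and with the floors at the 50th and 75th percentile. Birc3, of an inhibitor of apoptosis that ubiquitinates receptor complexes, rose 3.21-fold at 2 h and 3.29-fold at 12 h, and its relative Birc2 2.03-fold at 2 h. Of 9 kinase genes only Ikbke, a non-canonical IkB kinase, rose, 2.56-fold at 2 h and 3.74-fold at 12 h (signals 12.8, 16.6, 32.8 and 47.9). The 2 h call of Ikbke ended with the floor at the 50th percentile. Both of its calls ended with the floor at the 75th percentile and with the median of probe sets reaching it. Ikbkb, the catalytic subunit that marks IkB-alpha, read 298, 325, 276 and 280.

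Of 7 genes of the ligase that attaches ubiquitin to IkB and its partners, 0 passed 2-fold at any time. Over all genes 2.55% to 2.79% rose and 2.96% to 5.18% fell, so 0 of 7 does not set these genes apart. With the 1.5-fold rule Rbx1 was lower at 0.5 h and 12 h and Skp1 at 12 h. Btrc, which recognises the phosphorylated inhibitor, read 66.2, 70.5, 67.3 and 76.2. Of the 4 NF-kB subunit genes analysed, 1 rose at 0.5 h and 2 at 2 h and 12 h. Relb read 20.2, 46.4, 138 and 110 and Nfkb2, whose precursor p100 itself contains an IkB-like part, 83.1, 113, 240.5 and 235. Both were thus higher at 2 h than at 0.5 h, while Rela, the main transactivating subunit, stayed between 591 and 753. The calls of Relb at all 3 times ended with the floor at the 75th percentile, but held with the median of probe sets reaching it. Of 12 other inhibitors and IkB partners, Tnfaip3 (A20, a ubiquitin editor) rose 9.42-fold, 5.46-fold and 2.12-fold at the 3 times. Zc3h12a, of an RNase, rose 3.47-fold at 0.5 h, from 20.3 to 70.5. That call ended with the floor at the 75th percentile and with the median of probe sets reaching it. Tnip1, an A20 partner, rose 2.90-fold at 12 h. Tnip2 fell by 1.14 (log2) at 12 h to 13.6, a call that ended with each of the 3 scalings. Nfkbid, a further atypical IkB gene, had low signals of 16.4, 3.59, 11.7 and 5.14, and Nkiras1 and Nkiras2, small GTPases that bind IkB-beta, stayed within 0.20 (log2) of basal.

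**Figure D4:**
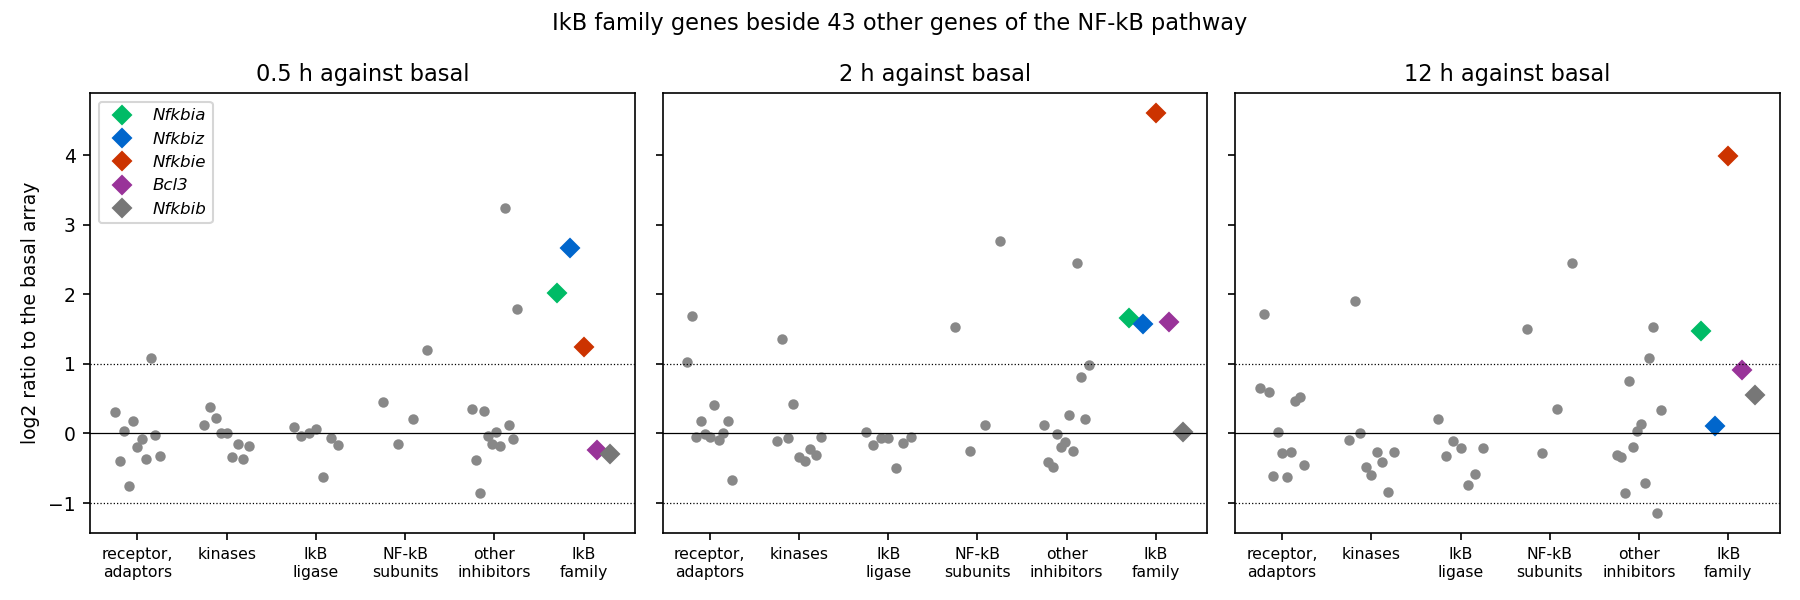
Log2 ratio to basal at 0.5, 2 and 12 h (panels) of 43 other NF-kB pathway genes in 5 lists (grey circles, 1 per gene) and of the 5 IkB family genes (coloured diamonds); dotted lines mark 2-fold. The 7 ligase genes lie within 2-fold at every time, while Nfkbie stands highest of all genes drawn at 2 h (4.60) and 12 h (3.98).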

How the data were processed

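The authors deposited 1 linear intensity per probe set and array for 4 Affymetrix arrays, per the labels; 8 µg of total RNA was labelled per sample. How signals were computed and whether arrays were scaled is not given in the sources used here. The number of arrays, 1 per group, limits the precision: 0 tests were run. Genes were named through the platform annotation (1 gene for 34945 probe sets, several for 932, none used for 9224 including 64 controls), and all 5 member IDs matched RefSeq with unchanged symbols. Ratios were taken on the deposited scale with Python 3.11.15, after raising signals to the floor; the script was tested on simulated data. All 5 members and their probe sets are named; pathway genes are named where they passed 2-fold, with a few others as background levels chosen after their values were seen; the 3 genes of most like pattern are named per member that rose, except 1 that is not reported here. The members, lists and the higher floor were chosen with earlier results of these data known. Ripk1, Chuk, Nfkb1 and Traf3 were not analysed here. Alternatives were other floors, 3 scalings, other probe set rules and 1.5-fold and 3-fold rules.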

Additional observations from a re-analysis of the deposited data

How the results depend on the processing

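The time of highest signal of Nfkbia, Nfkbiz, Nfkbie and Bcl3 was the same under all alternatives that gave it (34 values), and no ratio that passed 2-fold changed sign. Of 265 member ratios, 251 kept their side of the threshold. Both tallies include values that could not move. The chosen probe sets lay above the main floor on every array, so the 20th percentile floor or none left their signals unchanged. A higher floor cannot move the time of highest signal of a gene that still passes it. The tallies thus overstate how far these results were tried. Bcl3 gave no value with the 75th percentile rules. Among member counts, the 3 genes higher at 0.5 h became 2 with the 3-fold rule and with the floor at the 75th percentile, Nfkbie being lost. The 4 higher at 2 h became 3 with the 3-fold rule, which lost Nfkbiz, and with the 75th percentile rules, which lost Bcl3. The 2 genes higher at 12 h became 1 with the 3-fold rule. They became 3, with Bcl3 added, under the 1.5-fold rule and each of the 3 scalings. The 2 genes higher at 2 h against 0.5 h became 1 with the floor at the 75th percentile and with the median of probe sets reaching it. The gene lower at 2 h against 0.5 h, Nfkbiz, was lost (0) with the 3-fold rule, the mean of the probe sets (-0.88) and that median (-0.91), its other 2 probe sets having weaker falls. At 12 h against 2 h, 3 members were lower with the 1.5-fold rule and 0 with the 3-fold rule. Among pathway genes, those higher at 0.5 h numbered 2 with the 3-fold rule, 1 with the floor at the 75th percentile and 2 with the median of probe sets; the 3-fold rule left 3 at 2 h and 3 at 12 h. Lower at 0.5 h were 3 with the 1.5-fold rule and 1 with the 20th percentile floor or none; lower at 2 h was 1 with the 1.5-fold rule. Lower at 12 h were 9 with the 1.5-fold rule, 2 with the 20th percentile floor or none, and 0 with the 3-fold rule, the higher floors, every scaling and the median of probe sets. Other causes were not tested. The share of the Nfkbia rise left at 12 h was 68.8% with loess and 44.2% with the mean of the probe sets.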

Other observations

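A few probe sets stood apart from others of their gene. For Nfkbia, 1420089_at kept 35.1% of its peak rise at 2 h, where the other 4 probe sets kept 66.7% to 78.5%, and 25.0% at 12 h against 37.7% to 58.4%; it is also the dimmest of the 5. For Nfkbiz, 1457404_at kept 58.0% at 2 h and 16.6% at 12 h, where the other 2 kept 36.7% and 41.0%, then 1.39% and 4.32%. The cause was not tested. The Nfkbib probe set 1446718_at read 1.06, 0.807, 8.54 and 1.03 on the basal, 0.5, 2 and 12 h arrays, all under the floor of 9.08.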
